A study of Mus musculus with 9 samples.

Results

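Neurotrophins are secreted growth factors, and the levels of 6 genes of this system were examined in cultured bone-forming cells of newborn mice. The genes are the receptors Ngfr, Ntrk2 and Ntrk3, the sorting receptor Sort1, and the ligands Bdnf and Ntf3. They were taken by their symbols from the 25860 genes of the deposited count table, 1 row each, and were chosen by their levels in these same libraries and by the fold change of IRE1KO over WT, above all that of Ngfr. All 6 were abundant enough to be tested, but because this comparison served to choose them, their levels and fold changes are given as a description.

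The libraries came from 5 IRE1KO and 4 WT cultures. IRE1 (gene Ern1) senses unfolded proteins in the endoplasmic reticulum and answers by splicing the mRNA of Xbp1. All 9 are described in the labels as Osx1-Cre cells, in which the promoter of Sp7 (osterix), active in osteoblasts and their precursors, drives Cre recombinase, so Cre is shared by both genotypes as far as the labels say. The cells were flow sorted from calvaria, the roof of the skull, grown in alpha-MEM with 10% fetal bovine serum up to 90% confluence; each library pooled 3 to 5 pups aged 2 to 4 days. The labels name neither the allele of Ern1 nor what else the WT pups carried. They also leave out the litter and the day of the sort.

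Total counts ran from 18784636 to 22028075 per library, so that 3 counts, taken as the detection floor, were worth 0.136 to 0.160 CPM, a unit in which each count is divided by the size of its library. Pairs of IRE1KO libraries differed by 1.92 to 10.1 times sampling noise in variance, against 15.5 to 113.6 times for pairs of WT libraries. The value of 1.92 was that of IRE1KO libraries 3 and 5, and the next lowest was 4.05, for IRE1KO libraries 1 and 4. Whether libraries 3 and 5 were independent cultures was not tested, and an n of 5 takes them as such. The first principal component, with 45.9% of the variance, set WT library 4 apart. Total Ern1 averaged 53.1 ± 2.33 CPM over the IRE1KO libraries (SD, n = 5), against 47.2 ± 5.68 CPM over the WT libraries (SD, n = 4); a gene total does not show whether exons are missing and neither checks nor contradicts the genotype labels. Osteoblast-lineage transcripts were present, with Sp7 at 15.6 to 21.2 CPM and Runx2 at 63.6 to 69.4 CPM in IRE1KO, against 13.6 to 24.6 and 59.8 to 75.1 CPM in WT. Bglap (osteocalcin), a product of mature osteoblasts, was at or near 0.

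Neurotrophins act through receptors of separate families. The Trk receptors are tyrosine kinases with preferred ligands: BDNF binds TrkB (Ntrk2), and neurotrophin-3 (Ntf3) binds TrkC (Ntrk3). The p75 receptor (Ngfr), a member of the tumour necrosis factor receptor family, binds all mature neurotrophins and, together with sortilin (Sort1), their uncleaved precursors. Skull bone is innervated by sensory fibres that express Trk receptors, and p75 is known as a marker of neural crest, Schwann cell precursors and some mesenchymal stromal cells.

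The table of RefSeq start-site windows (GRCm38.p6) held 11 windows for 4 of the 6 genes, Ngfr, Ntrk2, Bdnf and Ntf3. Sequence in front of Ngfr and Ntrk2 is shown because these receptor genes had the same order of levels over the WT libraries. Each reads 5′ to 3′ on the strand of its gene and stops before the starts that RefSeq and GENCODE give the gene. For Ngfr, the bases next to the later start are not printed. For Ntrk2, the bases between the end of the stretch and the start at 58806569 are not printed. Capitals mark GC boxes (GGGCGG).
Ngfr: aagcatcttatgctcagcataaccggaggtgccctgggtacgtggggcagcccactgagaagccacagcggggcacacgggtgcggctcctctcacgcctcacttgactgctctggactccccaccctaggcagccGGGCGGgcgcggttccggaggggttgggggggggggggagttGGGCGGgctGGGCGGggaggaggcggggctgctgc
Ntrk2: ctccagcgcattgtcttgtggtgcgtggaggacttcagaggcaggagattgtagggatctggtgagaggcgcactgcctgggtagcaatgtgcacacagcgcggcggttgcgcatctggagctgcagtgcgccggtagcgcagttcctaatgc
The Ngfr stretch, chr11:95587736-95587948 on the minus strand, has 213 bases and 3 GC boxes, and the Ntrk2 stretch, chr13:58806319-58806471 on the plus strand, has 153 bases and none. In the 250 bases before the RefSeq start of Ngfr, the last of which GENCODE counts as transcribed, there were 4 GC boxes and 70.4% G and C. Over 32851 windows of 250 bases, searched on both strands, 32.7% held a GC box, 1.55% the cyclic AMP response element TGACGTCA and 1.65% the core TGACGTG to which the spliced XBP1 protein binds. Of the 11 windows of these genes, 5 held a GC box, none the cyclic AMP element and 1, in front of a Bdnf start, the XBP1 core. The endoplasmic reticulum stress response element was in none of the 11 and in 0.113% of all windows. A match or its absence describes these letters and nothing more.

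Ngfr, on chromosome 11 from 95568818 to 95587735 (GRCm38, minus strand, ENSMUSG00000000120), had the largest fold difference of the 6 genes. Its level was 1.94, 1.95, 1.06, 0.456 and 1.73 CPM in IRE1KO libraries 1 to 5, and 3.32, 17.1, 18.4 and 23.3 CPM in WT libraries 1 to 4. Every IRE1KO library lay below every WT library, and WT library 1 stood closer to the IRE1KO libraries than to the other WT libraries. The counts behind these levels were 40, 38, 20, 10 and 36 reads in IRE1KO and 65, 333, 365 and 446 in WT, and the exact 95% Poisson interval, which covers counting error only, reached up to 2.67 CPM in IRE1KO library 2 and down to 2.56 CPM in WT library 1. The IRE1KO mean was 1.43 ± 0.652 CPM (SD, n = 5), against a WT mean of 15.5 ± 8.57 CPM (SD, n = 4), a fitted log2 fold change of -3.44 ± 0.56 SE, or 10.9-fold lower in IRE1KO. In bulk RNA of this kind, fewer cells that express a gene and less RNA in each such cell cannot be told apart.

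Sort1 (chromosome 3, 108284082 to 108361511, plus strand, ENSMUSG00000068747) encodes sortilin, the sorting receptor that pairs with p75 at the cell surface and carries BDNF into the secretory route. It was at 26.3, 27.3, 29.1, 27.9 and 24.3 CPM in IRE1KO libraries 1 to 5, against 32.5, 34.0, 32.6 and 52.3 CPM in WT libraries 1 to 4. The groups did not overlap, 3 WT libraries lay close together just above IRE1KO, and WT library 4 stood above them. The IRE1KO libraries averaged 27.0 ± 1.83 CPM (SD, n = 5), the WT libraries 37.9 ± 9.63 CPM (SD, n = 4), with a log2 fold change of -0.49 ± 0.14 SE. Without WT library 4 the WT mean moved towards IRE1KO and the log2 fold change was -0.29.

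Ntrk2 (chromosome 13, 58806569 to 59133970, plus strand, ENSMUSG00000055254) encodes TrkB, the receptor of BDNF. Its level was 0.728, 0.512, 0.372, 0.957 and 0.575 CPM in IRE1KO libraries 1 to 5, and 0.664, 0.98, 1.57 and 5.44 CPM in WT libraries 1 to 4. WT library 1 fell among the IRE1KO libraries, and WT library 4, with 104 reads, was far above all others, of which WT library 3 was the next with 31. The log2 fold change was -1.76 ± 0.61 SE with all libraries and -0.75 without WT library 4. The annotation (GENCODE M21) gives this gene 10 transcripts, 7 of them coding. A gene total does not separate the kinase form of TrkB from forms that lack the kinase.

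Ntrk3 (chromosome 7, 78175959 to 78738012, minus strand, ENSMUSG00000059146) encodes TrkC, the receptor of neurotrophin-3. It was at 1.02, 0.922, 0.797, 1.00 and 0.623 CPM in IRE1KO libraries 1 to 5, and at 1.02, 0.77, 1.06 and 2.04 CPM in WT libraries 1 to 4. Apart from WT library 4 the groups covered the same range. The log2 fold change was -0.48 ± 0.30 SE, and -0.12 without WT library 4. Between 13 and 39 reads lay behind each value.

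**Figure D1:**
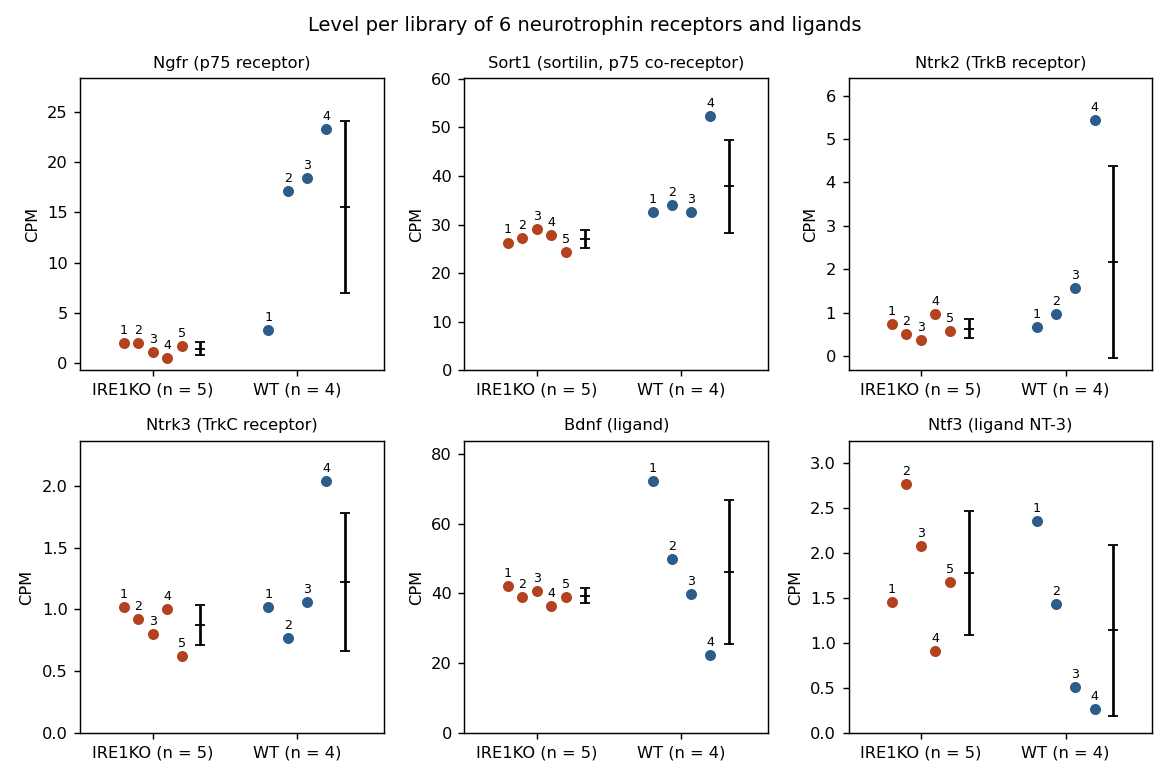
Level in CPM of the 4 receptor genes and 2 ligand genes in each library, IRE1KO (red, left) and WT (blue, right), with the replicate number above each point and the mean ± SD as a black bar to the right of each group. Ngfr and Sort1 are the genes whose groups do not overlap; WT library 1 is the lowest WT point for Ngfr at 3.32 CPM, and WT library 4 is the highest for all 4 receptors.

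Bdnf (chromosome 2, 109674700 to 109727007, plus strand, ENSMUSG00000048482) encodes brain-derived neurotrophic factor. Its level was 42.0, 38.9, 40.7, 36.3 and 38.8 CPM in IRE1KO libraries 1 to 5, and 72.2, 49.8, 40.0 and 22.5 CPM in WT libraries 1 to 4. The IRE1KO libraries lay in a narrow band that the WT libraries straddled, WT library 1 far above it and WT library 4 far below. The mean over IRE1KO libraries was 39.3 ± 2.16 CPM (SD, n = 5), that over WT libraries 46.1 ± 20.8 CPM (SD, n = 4), with a log2 fold change of -0.23 ± 0.26 SE. Its sign depended on the library left out, at -0.46 without WT library 4 and 0.072 without WT library 1. An annotated antisense gene, Gm45346, overlaps exons of Bdnf on the other strand, and since the strand setting of the counting is not given in the sources used here, reads of the 2 genes may have been shared.

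Ntf3 (chromosome 6, 126101412 to 126166910, minus strand, ENSMUSG00000049107) encodes neurotrophin-3. It was at 1.46, 2.76, 2.07, 0.912 and 1.68 CPM in IRE1KO libraries 1 to 5, and at 2.35, 1.44, 0.51 and 0.261 CPM in WT libraries 1 to 4. IRE1KO and WT overlapped, and the lowest levels were those of WT libraries 3 and 4, with 10 and 5 reads. Its log2 fold change of 0.63 ± 0.55 SE was the only positive one among the 6 genes, with a range of 0.30 to 1.26 when any 1 library was left out.

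Of the 6 genes, 1 (Ngfr, lower in IRE1KO) passed at an adjusted p under 0.05 in edgeR's quasi-likelihood test, where 0.634% of the 13712 tested genes passed and 0.379% passed as lower. For 2 of the 6, Ngfr and Sort1, the groups did not overlap, both lower in IRE1KO, against 6.93% of all tested genes in either direction and 3.28% in this one. DESeq2 called 2 of the 6, beside 4.14% of all tested genes, and limma voom none, beside 0.117%. The genes were chosen with this comparison in view, so nothing is read from these shares. The median log2 fold change of the 6 was -0.48, beside -0.0050 over all tested genes. Ngfr passed without WT library 1 (log2 fold change -3.78) and without WT library 4 (-3.18) and lost its call without any 1 of the other 7 libraries, where its fold change lay within the same range. Sort1 passed without WT library 4. Calls over all genes moved in these fits too, to 1192 of 13820 without WT library 1 and 399 of 13780 without WT library 4. They numbered 2 to 8 without any 1 of the others.

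**Figure D2:**
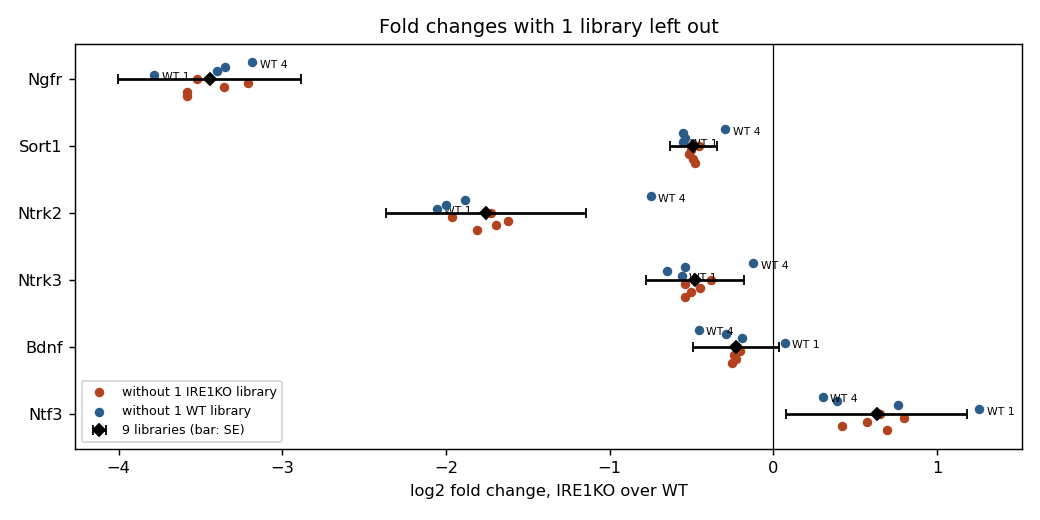
Log2 fold change of IRE1KO over WT for each gene with all 9 libraries (black diamond, bar: SE) and with 1 library left out (red points: an IRE1KO library, blue points: a WT library, with the fits lacking WT library 1 or 4 named). Ngfr stays between -3.78 and -3.18, Bdnf spans 0 with -0.46 to 0.072, and Ntrk2 and Ntrk3 come nearest to 0, at -0.75 and -0.12, without WT library 4.

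Per kilobase of annotated exon, the ligand Bdnf and the sorting receptor Sort1 were the most abundant of the 6 genes. Bdnf averaged 6.33 ± 0.347 CPM per kb in IRE1KO (SD, n = 5) and 7.42 ± 3.34 CPM per kb in WT (SD, n = 4), and Sort1 3.56 ± 0.242 and 5.00 ± 1.27 CPM per kb. In WT, Ngfr came next at 4.51 ± 2.49 CPM per kb, and these top 3 genes lay within each other's spread. In IRE1KO the third place was taken by Ntf3, at 1.04 ± 0.405 CPM per kb in IRE1KO and 0.664 ± 0.556 CPM per kb in WT, and Ngfr, at 0.414 ± 0.189 CPM per kb, came after it with an overlapping range. The Trk receptors were the lowest in both genotypes: Ntrk2 at 0.0326 ± 0.0116 and Ntrk3 at 0.0289 ± 0.00546 CPM per kb in IRE1KO, against 0.112 ± 0.115 and 0.0405 ± 0.0185 CPM per kb in WT, with no difference between them beyond their spread in either genotype. Exon length was the union over all annotated transcripts, 19.3 kb for Ntrk2 and 30.2 kb for Ntrk3, so the level of a shorter form that the cells may use is understated.

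Over the WT libraries the receptors Ngfr and Ntrk2 ran in the opposite order to the ligands. Ngfr and Ntrk2 ranked from WT library 1, the lowest, through 2 and 3 to WT library 4, the highest, whereas Bdnf and Ntf3 had exactly the reverse order. Ntrk3 and Sort1 were likewise highest in WT library 4. Such orders were common in these libraries: of all tested genes, 16.5% shared the order of Ngfr, 18.4% had the reverse, and WT library 4 was highest for 37.9% and lowest for 37.7%. The ratio of the highest to the lowest library was smaller within IRE1KO than within WT for each of the 6 genes. For Ngfr it was 4.27 in IRE1KO and 7.02 in WT, for Ntrk2 2.57 and 8.19, for Ntf3 3.03 and 8.99, and for Bdnf 1.16 and 3.21. Measured as the SD of log2 CPM among the IRE1KO libraries, Ngfr (0.80) lay at percentile 99.7 of all tested genes and Ntf3 (0.56) at percentile 97.6, with Ntrk2 (0.44) below them. Among the WT libraries Ngfr (1.27), Ntf3 (1.25) and Ntrk2 (1.25) lay at percentiles 98.5 to 98.6. The median SD over all tested genes was 0.077 in IRE1KO and 0.16 in WT.

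**Figure D3:**
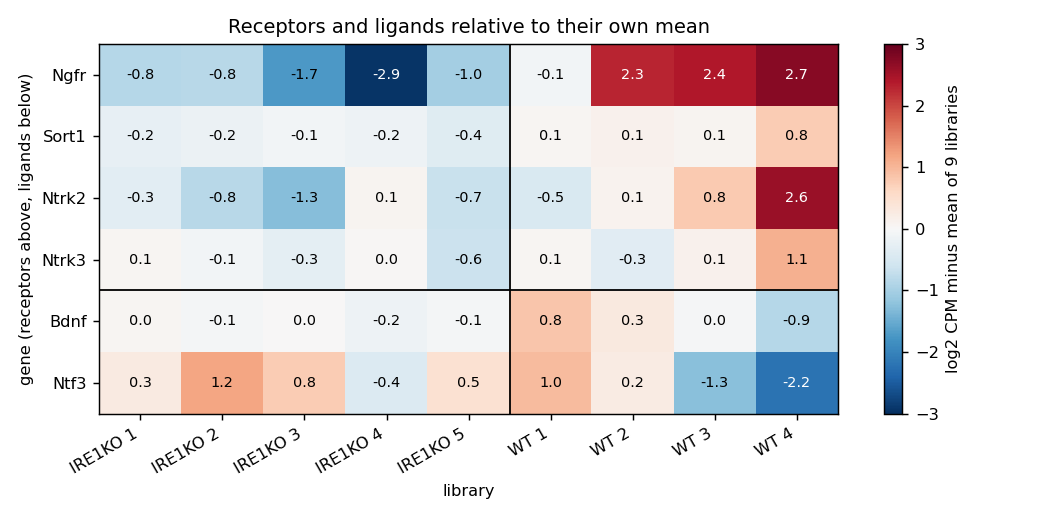
Log2 CPM of the 6 genes (rows, receptors above the line and ligands below) in the 9 libraries (columns, IRE1KO left of the line and WT right), each relative to the gene's own mean over the libraries; red is above and blue below that mean. In WT library 4 the receptors are above their means and the ligands below, and in WT library 1 the ligands are above; the IRE1KO columns of Bdnf and Sort1 are nearly even.

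Among 8 further ligands and receptors, 6 were tested and none passed in edgeR, 1 had an unadjusted p under 0.05, lower, and DESeq2 called 1. Over all tested genes, 0.634% passed in edgeR, 9.36% had such a p as lower and DESeq2 called 4.14%. Of the 6, Sorcs1, a relative of sortilin, came nearest to passing in edgeR. With 0.880 ± 0.112 CPM over the IRE1KO libraries, against 3.76 ± 2.23 CPM over the WT libraries, it had groups that did not overlap, and its log2 fold change of -2.08 ± 0.38 SE had an adjusted p of 0.0508 in edgeR. Sorl1, another sortilin relative, averaged 5.63 ± 0.849 CPM in IRE1KO, against 8.24 ± 3.25 CPM in WT. The median log2 fold change of the 6 tested genes was -0.29. Among the WT libraries Sorcs1 and Sorl1, like Ngfr and Ntrk2, were lowest in library 1 and highest in library 4. A further relative, Sorcs2, chosen after its values were seen, went the other way, with 99.6 ± 7.24 CPM in IRE1KO, against 71.6 ± 30.6 CPM in WT and a log2 fold change of 0.48 ± 0.22 SE that did not pass, and was lowest in WT library 2.

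Transcripts of proteins that act beside or below p75 gave no call in edgeR with all libraries. Of 14 tested co-receptors and adaptors, none passed in edgeR, 2 had an unadjusted p under 0.05, DESeq2 called 1 (Ndn), and the median log2 fold change was -0.02. Over all tested genes, 0.634% passed in edgeR, 16.5% had such a p and DESeq2 called 4.14%. The same shares stand beside the lists that follow in this paragraph. Ndn (necdin), which binds p75 and Trk receptors, differed by -0.24 ± 0.055 SE on the log2 scale and passed in edgeR without WT library 1 (-0.29, adjusted p = 0.00671), and the Nogo receptor Rtn4r, a partner of p75 in myelin signalling, 0.32 ± 0.10 SE. None of 12 tested Trk adaptors passed (1 at an unadjusted p under 0.05, none by DESeq2); Sh2b2 differed by 0.27 ± 0.093 SE on the log2 scale and Plcg1, the phospholipase that Trk kinases recruit, by -0.067 ± 0.035 SE. None of 15 tested genes that cleave neurotrophin precursors or p75 passed either (1 at an unadjusted p under 0.05, none by DESeq2). Adam10, a shedding protease, differed by -0.10 ± 0.035 SE on the log2 scale, and Mmp9, which can cleave precursors outside the cell, by 1.38 ± 0.69 SE.

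Genes that Trk signalling is known to induce, most of which also answer to serum and other growth factors, held the one pathway gene that passed. Spry2, a feedback inhibitor of receptor tyrosine kinases, was at 20.2, 19.5, 19.7, 20.0 and 18.5 CPM in IRE1KO libraries 1 to 5, against 22.3, 29.1, 26.7 and 25.7 CPM in WT libraries 1 to 4. It fell by 0.41 ± 0.073 SE on the log2 scale (edgeR adjusted p = 0.0482) with no overlap of the groups, and passed in 2 of the 9 fits without 1 library, those without WT library 1 or 4. Of the 13 genes on this list, all tested, 11 had an unadjusted p under 0.05, 10 of them lower in IRE1KO. Of all tested genes, 16.5% reached that level and 9.36% did so as lower. DESeq2 called 7 on the list, beside 4.14% of all tested genes, and limma voom none, beside 0.117%. The immediate-early transcription factors Egr1, Egr2 and Egr3 and the synaptic gene Arc, chosen after their values were seen, had log2 fold changes of -1.05 ± 0.26, -1.15 ± 0.25, -1.20 ± 0.27 and -1.54 ± 0.32 SE. Vgf, a secreted peptide precursor induced by neurotrophins in neurons and likewise chosen after its value was seen, was higher by 0.98 ± 0.22 SE; none of these 5 passed. The median of the list was -0.41. Egr1 was at 60.4 CPM in WT library 1, within the IRE1KO range of 36.1 to 70.2 CPM, and at 107.9 to 127.5 CPM in the other WT libraries, so that WT library 1 lay nearest to IRE1KO, as it did for Ngfr.

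The GDNF family, a second neurotrophic system with its own receptor kinase Ret, was counted as a comparison. None of its 7 tested genes passed in edgeR or DESeq2, and 4 had an unadjusted p under 0.05. Of all tested genes, 0.634% passed in edgeR, 4.14% in DESeq2 and 16.5% had such a p. Gfra2, the co-receptor of neurturin, averaged 3.59 ± 1.14 CPM in IRE1KO, against 11.5 ± 12.1 CPM in WT, where WT library 4 alone held 28.8 CPM. Ncam1, an alternative GDNF receptor, had a log2 fold change of 0.33 ± 0.11 SE. Over all these lists 67 of 77 pathway genes were tested, and 1 fell and none rose at an adjusted p under 0.05 in edgeR. Of all tested genes, 0.379% fell and 0.255% rose. The median log2 fold change of the pathway genes was -0.03. On these lists limma voom called none, beside 0.117% of all tested genes. The number of pathway genes called in edgeR was 11 of 67 without WT library 1, 6 of 67 without WT library 4 and 0 without any 1 of the other libraries. The same fits called 1192 of 13820, 399 of 13780 and 2 to 8 of all tested genes.

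**Figure D4:**
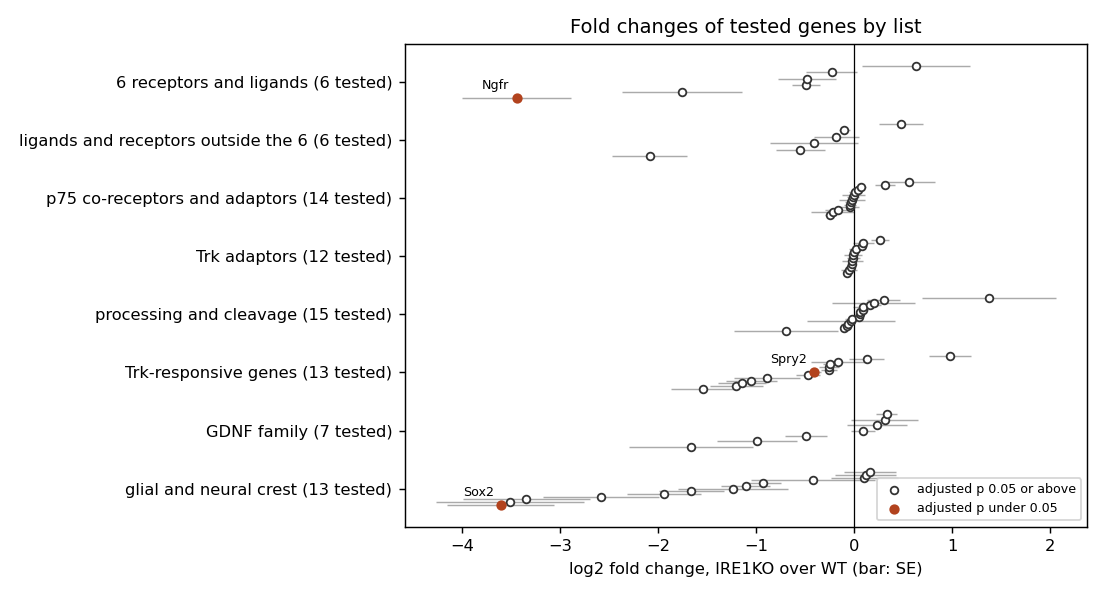
Log2 fold change of IRE1KO over WT (bar: SE) of every tested gene in the 6 receptors and ligands, the 6 pathway lists and the glial and neural crest markers. Filled points passed at an adjusted p under 0.05 (Ngfr, Spry2 and Sox2, all lower in IRE1KO); the points of the Trk-responsive and glial lists lie mostly left of 0, with medians of -0.41 and -1.24.

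Since p75 marks glia and neural crest as well as stromal cells, Ngfr was set beside 16 markers of Schwann cells, glia and neural crest. Of the 13 tested, 1 fell, none rose and 8 had an unadjusted p under 0.05, all lower in IRE1KO (8 by DESeq2, none by limma voom). Of all tested genes, 0.379% fell, 16.5% had such a p (9.36% as lower) and DESeq2 called 4.14%. The log2 fold change was negative for 10 of the 13 markers and positive for 3. Sox2, a transcription factor of glial precursors, averaged 0.178 ± 0.101 CPM in IRE1KO, against 2.23 ± 1.25 CPM in WT, a log2 fold change of -3.60 ± 0.55 SE (adjusted p = 0.0436, edgeR). It rested on 5, 2, 4, 1 and 6 reads in IRE1KO libraries 1 to 5, and on 14, 52, 37 and 70 in WT libraries 1 to 4. IRE1KO libraries 2 and 4 were thus below the floor of 3 counts. Sox10, the defining transcription factor of Schwann cells, was at 0.679, 0.973, 0.266, 0 and 0.432 CPM in IRE1KO libraries 1 to 5, and at 0.97, 4.57, 6.11 and 9.83 CPM in WT libraries 1 to 4. As with Ngfr, WT library 1 lay next to the IRE1KO libraries and WT library 4 was the highest, but the groups overlapped, and the log2 fold change of -3.51 ± 0.76 SE did not pass. The number of markers called was 9 of 14 without WT library 1, 4 of 13 without WT library 4 and 0 without any 1 of the other libraries. Over all genes, 1192 of 13820 passed without WT library 1 and 399 of 13780 without WT library 4. Between 2 and 8 did so in the other fits.

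The summed level of the 16 markers, of which none was at 0 in every library, was lower in IRE1KO as well. It was 56.0 to 69.8 CPM in IRE1KO and 80.5, 90.7, 94.1 and 138.4 CPM in WT libraries 1 to 4. Foxd3, which marks early neural crest, averaged 0.169 ± 0.165 CPM in IRE1KO, on 1 to 7 reads per library, against 1.75 ± 0.952 CPM in WT. Gfap, a marker of mature glia, was below 1 CPM in every library. Both genes were chosen after their values were seen, and both were too low to test. Reads of Ngfr per read of Sox10 were 2.86, 2.00, 4.00 and 4.00 in IRE1KO libraries 1, 2, 3 and 5, which held 5 to 19 reads of Sox10, and 3.42, 3.74, 3.02 and 2.37 in WT libraries 1 to 4; IRE1KO library 4 had 10 reads of Ngfr and 0 of Sox10, which allows up to 0.136 CPM. The WT ratios lay within the range of the IRE1KO ratios. Against the whole marker list the ratio did differ: reads of Ngfr per 100 reads of the 16 markers were 3.07, 2.79, 1.90, 0.660 and 3.05 in IRE1KO libraries 1 to 5, and 4.12, 18.8, 19.6 and 16.8 in WT libraries 1 to 4, with no overlap. The part of such cells in the difference in Ngfr was not tested.

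**Figure D5:**
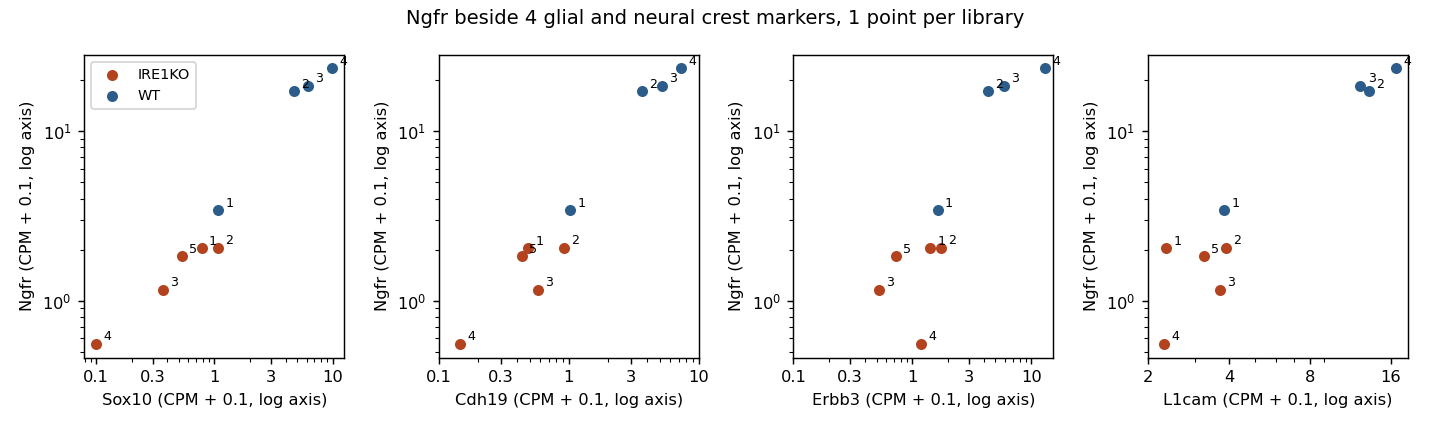
Level of Ngfr (vertical) against Sox10, Cdh19, Erbb3 and L1cam (horizontal), each as CPM + 0.1 on log axes, with 1 point per library (red: IRE1KO, blue: WT, replicate number beside the point). Sox10 and Cdh19 were named for their likeness to Ngfr, and Erbb3 and L1cam were chosen after their values were seen. All 4 had a negative log2 fold change. Of the 13 tested glial and neural crest markers 10 were negative and 3 positive, and those 3 are not shown. WT libraries 2 to 4 lie at the upper right, with Sox10 at 4.57 to 9.83 CPM, and WT library 1 lies by the IRE1KO libraries, with Sox10 at 0.97 CPM.

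Genes with a profile like each of the 6 were sought by the root mean square difference between scaled log2 CPM over the 9 libraries, where 0 means identical profiles and the median over 11849 genes was 1.44 for Ngfr. The nearest to Ngfr were Fgf5 (0.172), a fibroblast growth factor, Sox10 (0.192), Prkdc (0.192), the catalytic subunit of the DNA-dependent protein kinase, Cadm4 (0.211), an adhesion protein of Schwann cells, Cdh19 (0.215), a cadherin of Schwann cell precursors, and Glg1 (0.239), a Golgi protein. From Ngfr, Sort1 held rank 891, Ntrk2 rank 1139, Ntrk3 rank 2813, Bdnf rank 6946 and Ntf3 rank 9819, so the other neurotrophin genes were not among its near neighbours. Cdh19 averaged 0.413 ± 0.279 CPM in IRE1KO, against 4.19 ± 2.65 CPM in WT, and Cadm4 2.99 ± 0.650 CPM in IRE1KO, against 14.3 ± 6.66 CPM in WT. The nearest to Bdnf were Lama2 (0.126), a laminin chain, and Crim1 (0.129), a membrane protein that binds BMPs. Nearest to Ntrk2 were Ncoa1 (0.0875) and Tep1 (0.151), to Sort1 Zfp275 (0.194) and Zfp788 (0.205), to Ntrk3 Ccdc159 (0.204) and Cln3 (0.234), and to Ntf3 Ttc27 (0.142) and Gtf3c6 (0.188). Likeness over 9 libraries that share WT library 4 as an extreme is a description and says nothing of shared control.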

How the data were processed

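Gene expression was measured by RNA sequencing of polyadenylated RNA in 9 libraries, made from strand-marked cDNA in 1 batch per the labels. The authors deposited raw counts, whole reads per gene and library, without normalization. STAR, limma and mm10 are named per the submitters' processing notes; no source used here names the counting program, its annotation or whether strand was used. The labels call each pool of pups 1 biological replicate.

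Counts were filtered with edgeR's filterByExpr, which left 13712 genes, scaled by TMM and compared with edgeR's robust quasi-likelihood test, genotype being the sole term, with Benjamini-Hochberg adjustment over all tested genes and a threshold of 0.05. A gene "passed" or was "called" below that adjusted p. CPM used TMM-scaled library sizes. Log2 fold changes are IRE1KO over WT. Tools were R 4.3.3, edgeR 4.0.16, limma 3.58.1, DESeq2 1.42.0, Python 3.11.15, NumPy 2.4.6, SciPy 1.17.1, pandas 2.3.3 and matplotlib 3.10.9. Positions, transcripts and exon lengths came from GENCODE M21 on GRCm38, matched by Ensembl identifier.

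The 6 genes, the gene lists and the naming rule were chosen with earlier results of these data known. From each list the passing genes were named (at most 6) or, where none passed, the 2 with the smallest p; likewise among genes within 1 Mb of Ngfr. The 6 most similar genes of Ngfr and the 2 of each other gene were added, sought among tested genes that averaged 1 CPM or more, leaving out symbols of predicted genes. All 151 list genes matched the table. Some genes counted in the lists are not reported here by name. Alternatives were other size factors, DESeq2, limma voom, other filters, no robust dispersion, a replicate block, IRE1KO libraries 3 and 5 summed, and each library left out. On simulated counts for 13712 genes the test recovered 58.2% of the genes changed 1.5-fold, 79.1% of those changed 2-fold and 95.5% of those changed 4-fold. Of its 164 calls 5.49% were false. The simulation gave each gene the same spread in both genotypes and held no outlying library. In the real libraries WT varied more than IRE1KO and WT library 4 stood apart, so these rates cannot be carried over to them.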

Additional observations from a re-analysis of the deposited data

Results flagged for a closer look

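Single libraries stood apart from the rest of their group in 6 of 98 groups of libraries examined over 49 named genes. Chance flags about 1 in 20 groups. Sort1 was at 52.3 CPM in WT library 4, against 32.5 to 34.0 CPM in the other WT libraries. Pdgfrb, a pericyte and fibroblast receptor, was at 526.6 CPM in WT library 1, against 409.9 to 426.9 CPM. Of the genes most like Ngfr, Fgf5 was low in WT library 1 at 1.17 CPM, against 3.54 to 4.02 CPM, and so was Prkdc at 60.5 CPM, against 70.9 to 72.4 CPM. Ccdc159, like Ntrk3, was high in WT library 4 at 5.44 CPM, against 2.77 to 3.08 CPM. Zfp788, like Sort1, was low in IRE1KO library 5 at 12.3 CPM, against 12.8 to 13.0 CPM. All but 1 of these libraries were WT library 1 or 4. With 4 libraries in the group, Ngfr in WT library 1 (3.32 CPM) did not pass this criterion.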

How the results depend on the processing

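Calls depended on the processing more than fold changes did. Over all genes 87 passed; the number was 568 with DESeq2, 16 with limma voom, 45 with no filter, 10 with IRE1KO libraries 3 and 5 summed, 0 with the replicate block, and 2 to 1192 with 1 library left out. Of the 6 genes 1 passed, against 2 with DESeq2, 0 with limma voom, no filter, the block or the summed libraries, and 0 to 2 with 1 library left out. Ngfr lost its call with limma voom (-3.29), no filter (-3.44), the replicate block (-3.33) and the summed libraries (-3.44), and ranged from -3.78 to -3.18 with 1 library left out; Sort1 passed with DESeq2 (-0.49) and ranged from -0.55 to -0.29. For the pathway lists 1 gene passed, against 9 with DESeq2, 2 without robust dispersion, 0 with limma voom, no filter, the CPM filter, the block or the summed libraries, and 0 to 11 with 1 library left out. For the glial list it was 1, against 8 with DESeq2, 0 with limma voom, the CPM filter, the block or the summed libraries, and 0 to 9 with 1 left out. Of genes near Ngfr 0 passed, and 0 to 4 with 1 left out. Signs changed with 1 library left out for Bdnf (-0.46 to 0.072), Csf1r (-0.071 to 0.43), Ptprc (-0.10 to 0.37), Lama2 (-0.22 to 0.040) and Crim1 (-0.59 to 0.00057). The cause was not tested. Of 725 refits of 43 other named genes, 648 kept direction and side of the threshold, 44 lost a call, 29 gained one and the 4 above changed sign. The replicate numbers share no source in the labels. Same-numbered libraries correlated at 0.151, -0.204, -0.194 and 0.473, with IRE1KO libraries 1 and 4 closest to their own number and 2 and 3 not. These values cannot decide whether same-numbered cultures shared a litter or a sort day. The main fit did not pair them. Ntrk2, Ntrk3 and Ntf3 rest on 5 to 104 reads per library, which limits the precision of their levels.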

Other observations

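The neighbourhood of Ngfr showed no change that passed. Of 66 annotated genes within 1 Mb, 31 were tested and none was called (4 at an unadjusted p under 0.05, none by DESeq2 or limma voom), with a median log2 fold change of 0.05. Of all tested genes, 0.634% passed in edgeR, 16.5% had such a p, DESeq2 called 4.14% and limma voom 0.117%. Lrrc59, a ribosome-binding protein of the endoplasmic reticulum, had 0.25 ± 0.084 SE, and Samd14 -0.39 ± 0.14 SE. Ngfr lies 10.8 Mb from Ern1 on the same chromosome. The other 5 genes lie on other chromosomes.

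Among markers of other cells that the cultures could hold, 1 passed, and limma voom called none. None passed in edgeR among 9 tested pericyte and smooth muscle markers (2 at an unadjusted p under 0.05, 1 by DESeq2), 7 marrow stromal (1 and 0), 5 fibroblast (0 and 0), 5 osteoblast (1 and 1), 5 macrophage (0 and 0) and 4 neuronal genes (1 and 1). Of all tested genes, 0.634% passed in edgeR, 16.5% had such a p, DESeq2 called 4.14% and limma voom 0.117%. Mcam, a pericyte adhesion protein, differed by -1.05 ± 0.25 SE on the log2 scale and Ibsp, bone sialoprotein, -2.06 ± 0.58 SE. Kitl had -0.38 ± 0.16 and Foxc1 -0.20 ± 0.11 SE, Thy1 0.17 ± 0.075 and Cd34 -0.67 ± 0.34 SE, and Alpl -0.23 ± 0.14 SE. Nefm, a neurofilament, had 0.78 ± 0.17 SE and Syt1 0.85 ± 0.43 SE, while the neuronal marker Rbfox3 had 0 counts in every library. Pdgfrb had 0.20 ± 0.076 SE. Of the macrophage genes, Csf1r had 0.19 ± 0.34 SE and Ptprc 0.17 ± 0.37 SE. Of the 4 tested endothelial genes, Pecam1 fell by 1.99 ± 0.36 SE, to 0.174 ± 0.0902 CPM in IRE1KO, against 0.719 ± 0.167 CPM in WT (edgeR adjusted p = 0.0497). These levels rested on 6, 3, 1, 5 and 3 reads in IRE1KO libraries 1 to 5, close to the floor of 3 counts. WT libraries 1 to 4 held 11, 18, 12 and 15 reads. The call was lost with no filter (adjusted p = 0.0603), with the replicate block (0.265), with IRE1KO libraries 3 and 5 summed (0.116), with limma voom (0.0600) and in 7 of the 9 fits without 1 library, and passed with DESeq2.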
